A study of Mus musculus with 3 samples.

Results

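The receptor genes that carry transferrin, insulin, insulin-like growth factor, leptin, lipoproteins and cobalamin into cells were followed in isolated brain vessels with and without Cx30. They were chosen as a list of names, Tfrc, Insr, Lrp1, Lepr, Igf1r, Cd320, Ager, Lrp8 and Scarb1, and all 9 were found among the 29920 genes of the expression files. Each gene was represented by its transcript row with the largest total count. Polyadenylated RNA was sequenced in 3 libraries, Cx30-/- (ubiquitous deletion of Gjb6, the gene of Cx30), C57BL6 WT and C57BL6-BALB/c WT, each made from the pooled brain vessels of 3 male mice aged 3 months. The strain label of the Cx30-/- library is C57BL6, whereas the methods of the study place these mice and the Cx30+/+ mice on a mixed C57BL6/Balbc background. The study thus takes C57BL6-BALB/c WT as the control of the same background. Since label and methods disagree, the matched control is not settled from the sources alone. Each group was 1 library, and no difference could be set against a spread between replicates.

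Brain endothelial cells are sealed by tight junctions, and large plasma proteins enter the brain mainly by binding receptors on the luminal membrane, being internalized in clathrin-coated vesicles and released on the other side. Tfrc, the transferrin receptor, takes up iron-loaded transferrin and is the receptor most used to ferry antibodies across the blood-brain barrier (BBB). Insr and Igf1r bind insulin and insulin-like growth factors, and Lepr binds leptin. Lrp1 and Lrp8 belong to the LDL receptor family, Scarb1 (SR-B1) binds HDL, Cd320 binds cobalamin carried by transcobalamin, and Ager (RAGE) binds S100 proteins, HMGB1 and amyloid beta.

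The mRNA of Tfrc is known to be stabilized in iron-poor cells by iron regulatory proteins that bind hairpins of its 3' untranslated region, which is why these elements are shown. The pattern searched was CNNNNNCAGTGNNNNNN on the transcript strand, with all 5 bases before the CAGTGN loop able to pair with the last 5 bases (G-T pairs allowed). It was found 4 times in Tfrc-201, each time in the 3' untranslated region. Hairpins that depart from this pattern were not sought, so these need not be all the elements of Tfrc. The sequences below come from GENCODE M21 on GRCm38, on the plus strand of chromosome 16, with the loop in capitals.
Tfrc element 1 (chr16:32631225-32631241): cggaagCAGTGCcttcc
Tfrc element 2 (chr16:32631604-32631620): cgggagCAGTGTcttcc
Tfrc element 3 (chr16:32631669-32631685): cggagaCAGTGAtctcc
Tfrc element 4 (chr16:32631716-32631732): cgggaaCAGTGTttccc
Among the 29917 genes with a GENCODE M21 sequence for their row, 274 (0.916%) held at least 1 such match, and only Tfrc held at least 4. None (0) of the other receptor transcripts had a match, which says only that these letters were not in them.

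The deposited counts summed to between 50375426 and 60725557 per library, with a read on a shared exon counted for each transcript. The library totals implied by the deposited fractions (count over total) were between 20654144 and 24830975. The deleted gene Gjb6 had 96 counts in Cx30-/- vessels, against 2899 in C57BL6 WT and 2246 in C57BL6-BALB/c WT. Normalized counts are the counts over a size factor per library by the median of ratios (0.953, 1.15 and 0.926 in this order). Every ratio is given as a log2 ratio with a 95% exact binomial interval of the raw counts, which covers counting error only. Where a pair of ratios is given for a gene or list, the first is Cx30-/- over C57BL6 WT and the second Cx30-/- over C57BL6-BALB/c WT. A gene was called at a ratio of at least 2 where either library of the pair reached 50 normalized counts, after the thresholds of the study.

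None (0) of the 9 receptor genes was called in any comparison, although each of the 9 passed the count minimum. Lepr and Ager, which had the fewest reads per length, showed the largest log2 ratios for Cx30-/- vessels, 0.54 and 0.45 against C57BL6 WT and 0.73 and 0.72 against C57BL6-BALB/c WT. On the rows used, Tfrc differed by at most 0.04 between any pair of libraries, and Lrp1 and Lrp8 had negative ratios in both comparisons. Of all genes past the minimum, 2.68% were called for Cx30-/- against C57BL6 WT, 8.69% against C57BL6-BALB/c WT and 3.43% between the WT libraries, and 1.42% were called in the same direction against both WT libraries. At rates of this size, a list of 9 genes without a call is not set apart from genes in general.
At a lower threshold of 1.5-fold, no receptor (0 of 9) was higher in Cx30-/- than in C57BL6 WT vessels, where 4.91% of all genes were. Against C57BL6-BALB/c WT vessels, 3 of the 9 were at least 1.5-fold higher, Lepr, Ager and Scarb1, beside 14.1% of all genes. Whatever the size, 7 of the 9 had positive and 2 negative ratios in both comparisons on the rows used. Of all 14688 genes past the minimum in both comparisons, 37.1% were higher and 36.6% lower in both. The signs of Tfrc, Lrp1, Lrp8 and Scarb1 against C57BL6 WT depended on the row, as did that of Tfrc against C57BL6-BALB/c WT. Over the Lrp1 rows with at least 50 counts in every library, the ratio to C57BL6 WT ran from -0.43 to 0.02. The median log2 ratio of the 9 was 0.12 against C57BL6 WT and 0.49 against C57BL6-BALB/c WT, and -0.19 for C57BL6-BALB/c WT against C57BL6 WT, while the medians over all genes past the minimum were -0.0046, 0.0040 and 0.00035. The comparisons share the Cx30-/- library and are not independent.

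**Figure D1:**
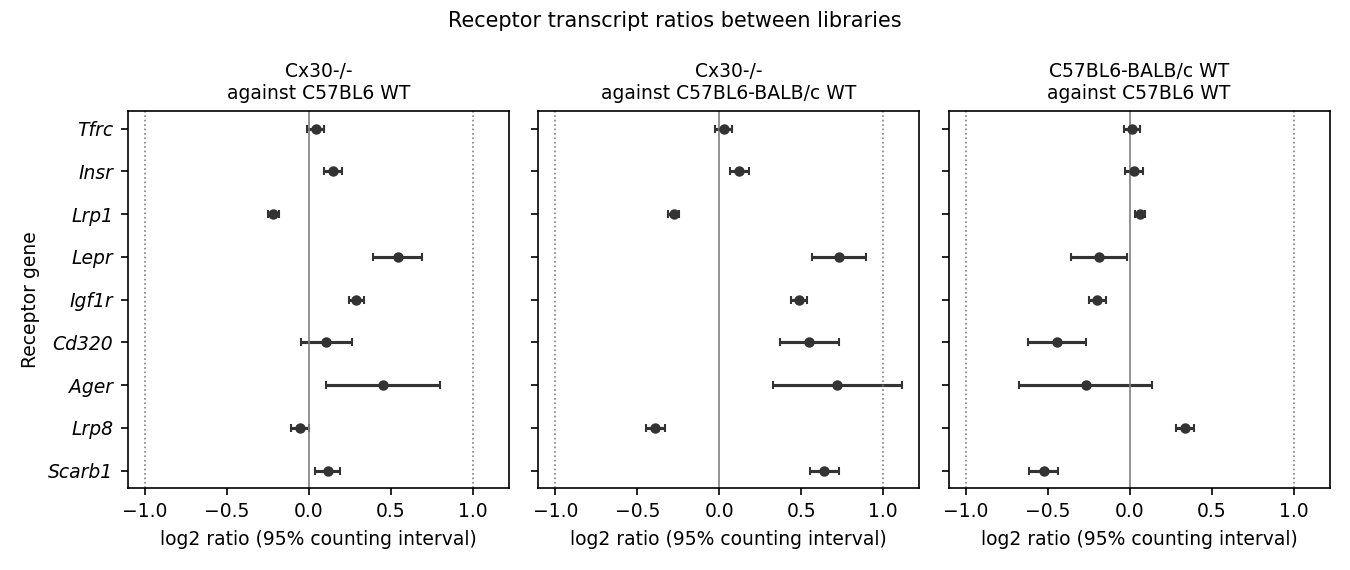
Log2 ratio of normalized counts of each receptor gene (rows) for each pair of libraries (panels), with the 95% exact counting interval as bars and 2-fold as dotted lines. All 27 points lie within 2-fold, Lepr and Ager lie furthest to the right in both Cx30-/- panels, and only the interval of Ager against C57BL6-BALB/c WT, reaching 1.11, crosses a dotted line.

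The first receptor by level was Tfrc (ENSMUSG00000022797; chromosome 16 of GRCm38, 32608920 to 32632794, plus strand), whose 3' elements are printed above. It had 6509 normalized counts in Cx30-/- vessels, 6332 in C57BL6 WT and 6391 in C57BL6-BALB/c WT, from 6205, 7251 and 5917 reads. The 3 libraries were nearly level. The log2 ratios of the Cx30-/- library were 0.04 (-0.0092 to 0.089) for the C57BL6 WT control and 0.03 (-0.025 to 0.078) for the mixed one. These intervals hold 0 and leave room for a difference of less than 0.1 on the log2 scale as far as counting error goes. Over the 5 Tfrc rows with at least 50 counts in every library, which share exons, the ratios ran from -0.05 to 0.33 and from -0.28 to 0.05.

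Among the hormone receptors, Insr (ENSMUSG00000005534; chromosome 8, 3122061 to 3279617, minus strand), the receptor tyrosine kinase for insulin, was also close to level. It had 5405 normalized counts in Cx30-/- vessels, 4876 in C57BL6 WT and 4964 in C57BL6-BALB/c WT. The Cx30-/- library was the highest, with log2 ratios of 0.15 (0.094 to 0.20) and 0.12 (0.065 to 0.18), while the WT libraries differed by 0.03 (-0.031 to 0.082).
Igf1r (ENSMUSG00000005533; chromosome 7, 67952827 to 68233668, plus strand), the related receptor of insulin-like growth factors, had 8268 normalized counts in Cx30-/- vessels, 6765 in C57BL6 WT and 5897 in C57BL6-BALB/c WT. Here the 3 libraries were further apart, with Cx30-/- highest and C57BL6-BALB/c WT lowest. The log2 ratios of the Cx30-/- library were 0.29 (0.24 to 0.33) and 0.49 (0.44 to 0.54), and that between the WT libraries was -0.20 (-0.25 to -0.15), so the difference between the WT libraries was smaller than either difference from Cx30-/-.

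Lepr (ENSMUSG00000057722; chromosome 4, 101717404 to 101815352, plus strand), the leptin receptor, had the largest ratio of the 9 genes in each Cx30-/- comparison on the rows used. It had 858 normalized counts in Cx30-/- vessels, 589 in C57BL6 WT and 518 in C57BL6-BALB/c WT, from 818, 675 and 480 reads. Both WT libraries lay below the Cx30-/- library. The log2 ratios were 0.54 (0.39 to 0.69), or 1.46-fold, and 0.73 (0.56 to 0.89), or 1.66-fold. The second was close to that of Ager, 0.72 (0.33 to 1.11). With the rows of a gene summed, the Lepr ratio to C57BL6-BALB/c WT was 0.60, below Ager (0.73) and Scarb1 (0.62). Of all genes past the minimum, 5.75% had a higher ratio than Lepr against C57BL6 WT and 9.52% against C57BL6-BALB/c WT. Between the WT libraries the ratio of Lepr was -0.19 (-0.36 to -0.014).
The Lepr gene makes forms with a short or a long cytoplasmic tail, and only the long form carries the full signaling domain. The row used, Lepr-203, encodes a short form of 894 codons. The row of the long form, Lepr-201 with 1162 codons, had 292 normalized counts in Cx30-/- vessels, 195 in C57BL6 WT and 216 in C57BL6-BALB/c WT. Its log2 ratios were 0.58 (0.32 to 0.84) and 0.43 (0.17 to 0.70). A further short form, Lepr-202 with 892 codons, gave 0.71 (0.44 to 0.99) and 0.55 (0.26 to 0.83). For both of these forms Cx30-/- was again the highest library, but reads on shared exons were counted for each form, and the rows are not independent. In normalized counts per kilobase of transcript, the long form had 47.2, 52.3 and 70.7, and Lepr-203 had 106, 93.6 and 155 (C57BL6 WT, C57BL6-BALB/c WT and Cx30-/-).

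Of the lipoprotein receptors, Lrp1 (ENSMUSG00000040249; chromosome 10, 127538161 to 127621148, minus strand), a large endocytic receptor for apolipoprotein E, alpha-2-macroglobulin and amyloid beta, had the most reads of the list. It had 12367 normalized counts in Cx30-/- vessels, 14377 in C57BL6 WT and 15013 in C57BL6-BALB/c WT. The Cx30-/- library was the lowest, with log2 ratios of -0.22 (-0.25 to -0.18) and -0.28 (-0.32 to -0.24), against 0.06 (0.030 to 0.095) between the WT libraries.
Lrp8 (ENSMUSG00000028613; chromosome 4, 107802261 to 107876840, plus strand), the apolipoprotein E and reelin receptor ApoER2, had 4648 normalized counts in Cx30-/- vessels, 4827 in C57BL6 WT and 6095 in C57BL6-BALB/c WT. One library, C57BL6-BALB/c WT, stood above the other two. The ratio to C57BL6 WT was -0.05 (-0.11 to 0.0028), an interval that holds 0, and that to C57BL6-BALB/c WT was -0.39 (-0.45 to -0.33). The WT libraries differed by 0.34 (0.28 to 0.39). Over the 11 Lrp8 rows with at least 50 counts in every library, which share exons, the ratios ran from -0.05 to 0.19 and from -0.48 to -0.37. The row used gave the lowest ratio to C57BL6 WT.
Scarb1 (ENSMUSG00000037936; chromosome 5, 125277087 to 125341094, minus strand), the HDL receptor, had 2842 normalized counts in Cx30-/- vessels, 2624 in C57BL6 WT and 1822 in C57BL6-BALB/c WT. Here C57BL6-BALB/c WT stood below the other two libraries, opposite to Lrp8. The log2 ratios were 0.12 (0.040 to 0.19) and 0.64 (0.55 to 0.73), and the WT libraries differed by -0.53 (-0.61 to -0.44). Taking the longest Scarb1 row, a retained-intron transcript, moved these ratios to -0.05 and 0.17, so that the first changed its sign and the second fell below 1.5-fold.

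Cd320 (ENSMUSG00000002308; chromosome 17, 33843091 to 33849774, plus strand), the transcobalamin receptor, had 671 normalized counts in Cx30-/- vessels, 624 in C57BL6 WT and 459 in C57BL6-BALB/c WT. Its values had the order of Scarb1, with log2 ratios of 0.10 (-0.051 to 0.26) and 0.55 (0.37 to 0.73), and -0.44 (-0.62 to -0.27) between the WT libraries.
Ager (ENSMUSG00000015452; chromosome 17, 34597862 to 34600936, plus strand), which has been described as an influx receptor for amyloid beta, had the fewest reads, 149 in Cx30-/-, 131 in C57BL6 WT and 88 in C57BL6-BALB/c WT vessels. In this order they gave 156, 114 and 95.05 normalized counts, and Cx30-/- was the highest library. The log2 ratios of 0.45 (0.10 to 0.80) and 0.72 (0.33 to 1.11) excluded 0, but at this depth a 2-fold difference from C57BL6-BALB/c WT lay inside the interval, and the WT libraries could not be told apart (-0.27, -0.67 to 0.13). The row of every receptor was covered by reads over at least 83.0% of its bases in each library, with the lowest value for Lepr, and no exon of another annotated gene overlapped any of the rows used.

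Set per length, the receptors spanned 14.7-fold between the highest and the lowest mean over the 3 libraries. In normalized counts per kilobase, Tfrc had 1295 to 1331, Scarb1 723 to 1127, Lrp1 831 to 1008, Lrp8 701 to 920 and Igf1r 492 to 690.2. Insr followed with 521 to 578, Cd320 with 386 to 565, Lepr with 93.6 to 155 and Ager with 69.4 to 114. The range of Tfrc over the libraries did not overlap that of Scarb1, nor did the ranges of Lrp8 and Igf1r or of Cd320 and Lepr overlap. All other neighbours in this order overlapped. The place of Scarb1 depended on its row, since its longest row, the retained-intron transcript, had 87.7 to 102 and put it eighth. On the rows used, Tfrc was first and Lepr and Ager were eighth and last in each of the 3 libraries, and Tfrc stood above 94.0% to 94.5% of the genes with at least 50 normalized counts in some library.

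**Figure D2:**
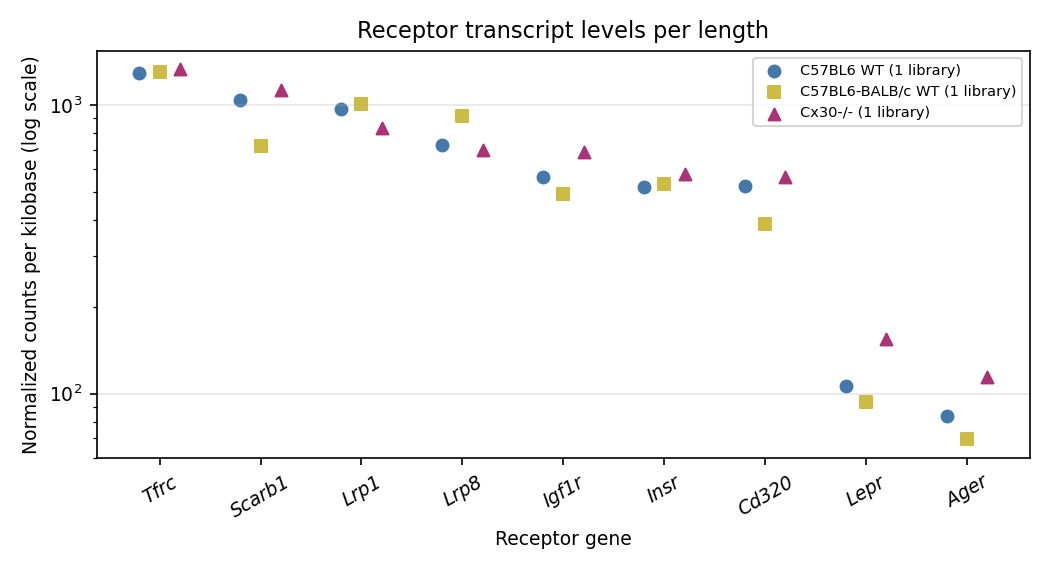
Normalized counts per kilobase of transcript (log scale) of the receptor genes, ordered by their mean, with 1 point for each of the 3 libraries (circle, C57BL6 WT; square, C57BL6-BALB/c WT; triangle, Cx30-/-). Tfrc lies between 1295 and 1331 in all libraries, and Lepr and Ager lie well below the other genes. Cx30-/- is the highest point of every gene except Lrp1 and Lrp8.

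The vessel preparation holds several cell types, and a higher share of one type cannot be told apart from more RNA per cell of that type. Of 12 endothelial genes, all 12 were higher in Cx30-/- vessels in both comparisons, with median log2 ratios of 0.22 against C57BL6 WT and 0.87 against C57BL6-BALB/c WT. Their summed level was 159640 normalized counts in Cx30-/- vessels, 131060 in C57BL6 WT and 76993 in C57BL6-BALB/c WT. Cldn5, the main claudin of the BBB, had ratios of 0.17 and 1.26, the adhesion molecule Pecam1 had 0.14 and 0.83, and the anion transporter Slco1a4, the largest increase of the list, had 0.71 and 1.55. On the rows used, Scarb1, Igf1r and Lepr had the library order of these genes, Cx30-/- above C57BL6 WT above C57BL6-BALB/c WT. For Lepr and Scarb1 the order depended on the row. C57BL6-BALB/c WT over C57BL6 WT was 0.15 (-0.13 to 0.43) for Lepr-201 and 0.17 (-0.14 to 0.47) for Lepr-202. Cx30-/- over C57BL6 WT was -0.05 for the longest Scarb1 row. The values of Cd320 and Ager had the endothelial order too, but for Cd320 the interval of Cx30-/- over C57BL6 WT and for Ager that between the WT libraries held 0. This order was not particular to endothelial genes. The summed levels of pericyte, perivascular fibroblast, red cell and neutrophil genes had it too, and those of the other marker lists did not. The values of the remaining 4 receptors did not follow this order, but for Tfrc and Insr the interval between the WT libraries held 0. Among them, Tfrc and Insr stayed within 0.15 in both comparisons.
When counts were scaled to the geometric mean of the 12 endothelial genes, a scaling added after the values were seen, every log2 ratio moved by -0.26 against C57BL6 WT and by -1.01 against C57BL6-BALB/c WT. On that scale Tfrc had -0.22 and -0.99, Insr -0.11 and -0.89, Lrp1 -0.47 and -1.29, and Lrp8 -0.31 and -1.40. Lepr kept a positive ratio against C57BL6 WT, 0.29, but had -0.29 against C57BL6-BALB/c WT, and Ager had 0.19 and -0.29. Igf1r had 0.03 and -0.53, Cd320 -0.15 and -0.46, and Scarb1 -0.14 and -0.37. Since the shift is the same for every gene, signs on this scale follow from the ratios already given. Lrp1 and Lrp8 were at least 2-fold lower in Cx30-/- than in C57BL6-BALB/c WT vessels on this scale, as were 50.7% of all genes. Lrp8 was at least 2-fold higher in C57BL6-BALB/c WT than in C57BL6 WT vessels, as were 26.3%.

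Markers of other cells differed between the libraries as well. Of 8 neuronal genes, 7 were lower and 1 higher in Cx30-/- vessels in both comparisons, with medians of -0.53 and -0.79 and a summed level of 40196, 48541 and 28143 normalized counts in C57BL6 WT, C57BL6-BALB/c WT and Cx30-/- vessels. The vesicle protein gene Syt1 had the largest decrease, -0.94 and -0.92, and Stmn2 was the exception with 0.08 and 0.15. On the rows used, the values of Lrp1 and of Lrp8, both of which neurons express, had the library order of this sum. However, the Lrp8 interval for Cx30-/- over C57BL6 WT held 0, and over 11 Lrp8 rows that ratio ran from -0.05 to 0.19. The summed level of the astrocyte genes had the order of the neuronal sum too. It was 38474, 38531 and 31377 in C57BL6 WT, C57BL6-BALB/c WT and Cx30-/- vessels, with the WT libraries nearly level. Astrocyte genes had medians of -0.24 and -0.18, with 3 of 6 lower in both comparisons (Slc1a2 -0.42 and -0.46) and 1 higher in both (Gja1 0.09 and 0.04), and oligodendrocyte genes -0.34 and -0.59. All 5 oligodendrocyte genes were lower against C57BL6 WT, with Mag at -0.99 and -0.63, but 2 of them, Mbp and Mobp, were higher against C57BL6-BALB/c WT (0.07 and 0.16).
The pericyte medians were 0.10 and 0.60 (3 of 6 genes higher in both comparisons, with Rgs5 at 0.23 and 0.91 and Kcnj8 at -0.43 and 0.54), those of perivascular fibroblasts 0.24 and 0.45 (Col1a2 0.37 and 0.62), and those of smooth muscle 0.28 and -0.14 (all 5 genes higher against C57BL6 WT, and against C57BL6-BALB/c WT 4 lower and only Des higher, with 0.21 and 0.18). Choroid plexus genes, whose epithelium is known to express Lepr, had medians of -0.55 and 0.46, and their summed level was 146090 normalized counts in C57BL6 WT, against 56894 in C57BL6-BALB/c WT and 76925 in Cx30-/- vessels, whereas Lepr was highest in Cx30-/-. For microglia and macrophages the medians were -0.22 and 0.10, with Mrc1 at 0.34 and 1.09 and Cx3cr1 at -0.56 and -0.05. Tfrc is abundant in red cell precursors and in dividing cells. The red cell genes were higher in Cx30-/- vessels, with Alas2, Hbb-bt and Hba-a1 called in both comparisons and medians of 1.19 and 2.22 over the 4 past the minimum, although Tfrc was level. The globin genes have near-identical copies and their values are uncertain. The single dividing-cell gene past the minimum, Mki67, had -0.03 and -0.0031. All 5 neutrophil genes past the minimum, S100a8, S100a9, Ngp, Camp and Mmp8, were called in both comparisons, with medians of 1.60 and 2.32. The part of these cells in the receptor ratios was not tested.

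**Figure D3:**
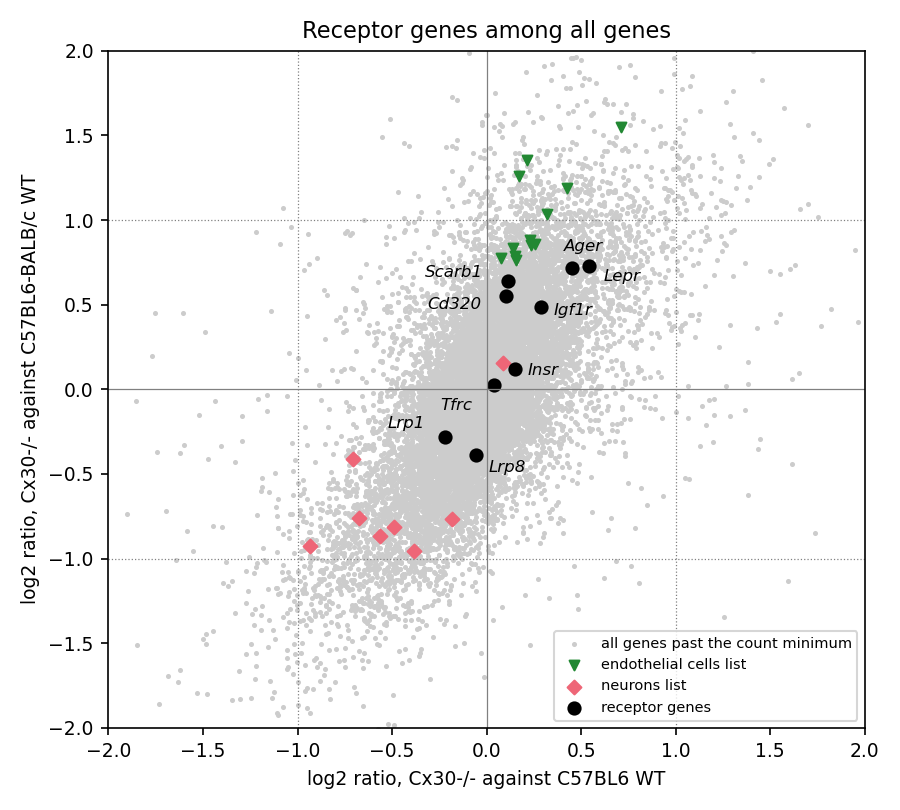
Log2 ratio of each gene for Cx30-/- against C57BL6 WT (horizontal) and against C57BL6-BALB/c WT (vertical), with 14688 genes in grey, receptor genes in black, endothelial genes as green triangles and neuronal genes as red diamonds; dotted lines mark 2-fold, and 98 genes lie outside the plotted range. Tfrc and Insr lie within 0.15 of the centre on both axes, and Lepr, with 0.54 and 0.73, lies furthest to the upper right of the receptors.

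As the one test with a residual degree of freedom, a quasi-likelihood fit in edgeR set Cx30-/- against the pair of WT libraries, and its error is the difference between these, their background included. None (0) of the 9 receptors had an adjusted p under 0.05, where 9 of 17576 genes (0.0512%) did. Lepr alone (1 of 9) had an unadjusted p under 0.05 in edgeR, where 8.69% of all genes did, and none (0) of the receptors had one in DESeq2, where 3.77% did. A count of 1 in 9 is near this background. The log2 fold change of Lepr was 0.64, with an adjusted p of 0.54 from edgeR that ran from 0.497 to 0.973 over all fits, DESeq2 included. For the other receptors the adjusted p from edgeR was 0.775 for Ager, 0.863 for Scarb1, 0.884 for Igf1r and Cd320, and 0.938 or higher for Lrp8, Lrp1, Insr and Tfrc. A p that misses the threshold in such a design does not show that the levels were equal.

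The ligands, carriers and relatives of the receptors came from lists of names, and the same call rule was applied to them. Of 13 transferrin and iron genes past the minimum, none (0) was called in both comparisons, and the medians were 0.11 and 0.48. Trf, encoding transferrin, had 2444 normalized counts in Cx30-/- vessels, 4919 in C57BL6 WT and 2358 in C57BL6-BALB/c WT, so that only the C57BL6 WT library stood apart. Its log2 ratios were -1.01, past 2-fold, and 0.05. The iron exporter Slc40a1 (0.0030 and 1.17) and the ferroxidase Cp (0.40 and 1.85) passed 2-fold against C57BL6-BALB/c WT alone. The ferritin light chain gene Ftl1 had the largest increase of the list by its smaller ratio (0.41 and 0.49), from at most 102 normalized counts and with pseudogene copies that make it uncertain, and the iron importer Slc11a2 the largest decrease (-0.32 and -0.52).
None (0) of 14 insulin and IGF genes was called in either comparison, with medians of 0.10 and 0.18. Igf2, a ligand of Igf1r, had 27003 normalized counts in Cx30-/- vessels, 23123 in C57BL6 WT and 17302 in C57BL6-BALB/c WT, with ratios of 0.22 and 0.64. This was the library order of Igf1r, but also that of the summed endothelial genes. Igf1 had -0.02 and -0.29, the clearing receptor Igf2r 0.09 and -0.06, and the binding protein gene Igfbp3, the largest increase, 0.47 and 0.97. The insulin-degrading protease Ide had -0.32 and -0.02. Of 6 leptin signaling genes none (0) was called. Socs3, an inhibitor of leptin receptor signaling, had 699 normalized counts in Cx30-/- vessels, 444 in C57BL6 WT and 382 in C57BL6-BALB/c WT, ratios of 0.66 and 0.87 that were the largest of that list, while Leprot had 0.20 and 0.82 and Ptpn1 -0.09 and -0.16. Lep itself had 2 reads in C57BL6 WT and 0 in the other libraries.

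Of the 11 other members of the LDL receptor family, none (0) was called, 6 were lower and 3 higher in Cx30-/- vessels in both comparisons, and the medians were -0.21 and -0.16. Lrp12 had the largest decrease (-0.67 and -0.71) and the Wnt coreceptor Lrp5 the largest increase (0.40 and 0.80). Vldlr had -0.38 and -0.56, and Lrp2 -0.16 and 0.42. Among 14 lipoprotein, ligand and adaptor genes none (0) was called in both comparisons. Apoe had 40298 normalized counts in Cx30-/- vessels, 36708 in C57BL6 WT and 30228 in C57BL6-BALB/c WT (0.13 and 0.41). Reln, the reelin ligand of Lrp8, had 269 in Cx30-/-, 421 in C57BL6 WT and 530.3 in C57BL6-BALB/c WT (-0.65 and -0.98). This was the library order of Lrp8 on the row used, but also that of the summed neuronal genes. The Lrp8 interval for Cx30-/- over C57BL6 WT held 0. The endocytic adaptor Dab2 had the largest increase, 0.42 and 1.01.
In the scavenger and HDL list, with 7 genes past the minimum, none (0) was called, and Cd163 (0.85 and 0.78) and the lipid exporter Abcg1 (-0.62 and -0.64) were its extremes. Of 7 cobalamin genes none (0) was called, and the medians were -0.0076 and -0.08. Tcn2, the ligand carrier of Cd320, had 2294 normalized counts in Cx30-/-, 2065 in C57BL6 WT and 1435 in C57BL6-BALB/c WT vessels (0.15 and 0.68), and the lysosomal protein gene Lmbrd1 -0.13 and -0.11. Of the 6 genes of RAGE ligands and effectors, S100a8 (1.57 and 2.58) and S100a9 (1.60 and 2.36) were called higher in both comparisons, and these are also the neutrophil genes named above. S100b, from glia, had 0.11 and 0.51. Of the 4 other receptors and carriers used for brain delivery, the IgG receptor gene Fcgrt had 0.21 and 0.66, Slc3a2 0.03 and 0.58, and none (0) was called.

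**Figure D4:**
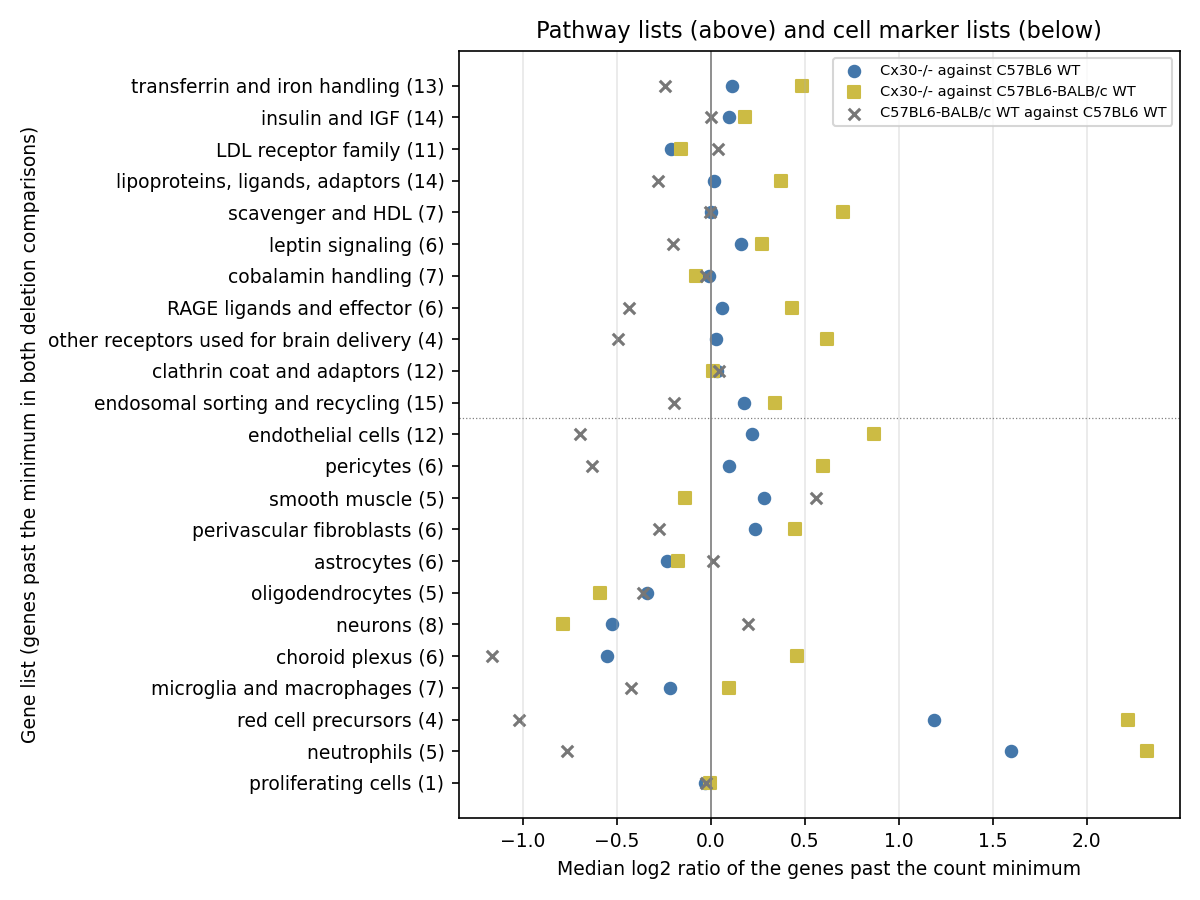
Median log2 ratio of each pathway list (above the dotted line) and cell marker list (below it) for the 3 pairs of libraries, over the genes past the count minimum (their number in brackets for both Cx30-/- comparisons). Red cell and neutrophil genes lie furthest to the right, between 1.19 and 2.32 for Cx30-/- vessels, and the pathway medians of both Cx30-/- comparisons stay between -0.21 and 0.70.

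For the 3 receptors with the largest ratio in either Cx30-/- comparison, all set by that against C57BL6-BALB/c WT, the nearest patterns among 174 listed genes were sought over the 3 libraries, by the largest difference in centred log2 normalized counts. Nearest to Lepr were Socs3 (largest difference 0.085) and Col1a2 (0.095). Nearest to Ager were Rab11b (0.040) and Abca1 (0.042), and nearest to Scarb1 were Tcn2 (0.024) and the pericyte gene Anpep (0.028). With 3 libraries these distances are a description of the libraries only.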

How the data were processed

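Samples were grouped by the titles of the labels, with 1 library per group. Within the Eoulsan 1.1.6 workflow, the authors used Bowtie 0.12.7 and kept reads with a single genomic match. They deposited 82813 rows of raw counts, one per Ensembl transcript, in which a read on a shared exon counts for each transcript. The library kit was not strand-specific. A deposited fraction (the count over a library total), the transcript length and its number of uncovered bases stand beside the count. The methods and labels name mm10, but only 1.57% of the rows had their GRCm38 start, so the build of the file positions is unknown and coordinates are those of GENCODE M21 (GRCm38), which named 83.8% of the rows.

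A gene took its row with the largest total count. Ratios used median-of-ratios size factors, and no pseudocount. Intervals came from scipy 1.17.1. The test across genes used edgeR 4.0.16 in R 4.3.3 (TMM factors after filterByExpr, then a quasi-likelihood F-test with Benjamini-Hochberg adjustment), with DESeq2 1.42.0 as an alternative beside other normalizations, rows, filters and thresholds, and was tested on simulated data. Its common biological coefficient of variation was 0.21.

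The members and all 23 lists (193 genes, 191 in the files) were chosen with earlier results of these data known. The genes named are the receptors, fixed ligands and relatives, the genes called in both comparisons and the largest increase and decrease of each list (by the smaller ratio), and nearest patterns. Slc40a1, Cp, Lep, S100b, Kcnj8, Mbp, Mobp, Cltc and Rab11fip1 were named after their values were seen. Some genes that this rule names are not reported here.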

Additional observations from a re-analysis of the deposited data

How the results depend on the processing

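Over 7 other settings (4 normalizations, the sum or the longest of a gene's rows, a pseudocount of 1), no receptor reached 2-fold in any comparison. Of the 189 log2 ratios so obtained, 176 stayed within the counting interval of the reported value and 5 changed sign, 3 of them for Tfrc and 1 for Insr between the WT libraries, and 1 for Scarb1 on its longest row. The largest shift, 0.47, was that of Scarb1 on that row. Scaling to the endothelial genes, added after the values were seen, gave 2 receptors at least 2-fold lower in Cx30-/- than in C57BL6-BALB/c WT vessels, Lrp1 and Lrp8, and 1 between the WT libraries, Lrp8, beside 50.7% and 26.3% of all genes. The number of genes called in both comparisons, 209, was 1954 without a count minimum, 126 with the minimum in every library, 1104 at 1.5-fold and 7 at 4-fold. The 9 genes of edgeR's test became 135 without a filter, 35 with RLE size factors and 19 with summed rows, and 7 with DESeq2. The cause of these shifts was not tested. Leaving out a WT library left no residual degree of freedom, so that the value without it is the ratio to the other. No paired analysis was possible because each group has 1 library and the labels give no replicate numbers. With 1 library per group, intervals cover counting error only, and mice, preparation, background and deletion cannot be told apart.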

Other observations

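The machinery that moves receptors inside the cell was looked at beside the receptors. Of 12 genes of the clathrin coat and its adaptors, none (0) was called in either comparison, and the medians were 0.03 against C57BL6 WT and 0.01 against C57BL6-BALB/c WT. The heavy chain gene Cltc had 8328 normalized counts in Cx30-/- vessels, 8054.5 in C57BL6 WT and 8300 in C57BL6-BALB/c WT (1 library each). The clathrin assembly gene Picalm had the largest increase, with log2 ratios of 0.29 and 0.24, and the adaptor subunit gene Ap2m1 the largest decrease, with -0.17 and -0.35. Of 15 genes of endosomal sorting and recycling, 11 were higher and 2 lower in Cx30-/- vessels in both comparisons, with medians of 0.18 and 0.34, and none (0) was called in both. Rab11b, a GTPase of recycling endosomes, had the largest increase (0.39 and 0.72), and Snx27, which returns receptors to the membrane, the largest decrease (-0.13 and -0.39). Rab11fip1, a Rab11 effector, had 1608 normalized counts in Cx30-/-, 1326 in C57BL6 WT and 603 in C57BL6-BALB/c WT vessels, and was the only gene of the list past 2-fold against C57BL6-BALB/c WT (1.42). Over all 14688 genes past the minimum in both comparisons, 37.1% were higher and 36.6% lower in both. The endothelial genes moved in the same direction as the recycling genes, and their part was not tested.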
